A study of Rattus norvegicus with 20 samples.

Results

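Foetal rat testes exposed to a compound labelled EHO were compared with foetal rat testes exposed to TOTM at the same dose by mass. The comparison rests on the probes of a 1-colour rat expression array whose signal the scanner software marked as well above background on each of the 8 arrays. These were 17714 of the 41012 non-control probes. They stand for 15160 genes, of which 8723 have a symbol in the reference table.

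The dams were Han Wistar rats gavaged daily on gestation days 12 to 19 with EHO or TOTM at 500 mg/kg, or with corn oil alone in the control group. TOTM is tris(2-ethylhexyl) trimellitate, a plasticiser, and EHO is known here only by its label. Both were given at 1 dose by weight, which need not hold as many molecules. Each array held RNA from the pooled testes of at least 3 male pups of 1 litter, and each group had 4 arrays. The p-values therefore measure the spread between arrays, which holds differences between litter pools and in how each array measured. The EHO arrays shared 1 slide and 1 scan and the TOTM arrays another, so in what follows the compound and the slide cannot be told apart. Control arrays are given as levels only. Defining genes of the tissue were present on all 8 arrays, with Amh at 5.49 to 6.22, Insl3 at 5.53 to 5.64 and the germ cell gene Ddx4 at 2.05 to 2.65 on the scale explained below.

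In the foetal testis, Sertoli cells form cords around the gonocytes, the foetal germ cells, and secrete anti-Müllerian hormone. Leydig cells between the cords make testosterone from cholesterol and secrete the hormone of testis descent, INSL3. Around them lie peritubular and interstitial cells, many of which carry the nuclear receptor NR2F2 and lay down collagen. Foetal exposure to certain phthalate plasticisers is known to lower testosterone synthesis in the rat. In whole testis RNA, fewer cells of a type and less RNA per cell cannot be told apart.

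Only this 1 pair of compounds was compared. Signal is given as log2 of the processed signal relative to the 75th percentile of each array. A difference is EHO minus TOTM on that scale, so 1 means 2-fold, and ± after a difference is its standard error. Values by array run from replicate 1 to replicate 4, a number that only names the array. A gene was called when its adjusted p in the limma fit of the 8 arrays was under 0.05.

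Between EHO and TOTM 2682 genes were called, 17.7% of those tested. Of these, 1918 were higher with EHO (12.7% of genes tested) and 764 were lower (5.04%). At least 2-fold differences were mostly on the higher side, with 300 genes higher and 26 lower. The median over all genes was 0.02. The arrays of both groups did not overlap for 24.7% of genes, 16.0% higher and 8.67% lower with EHO. The count fell to 1559 without TOTM 1, to 1313 without TOTM 2 and to 1385 without TOTM 3. Lower calls fell to 345, 243, 207 and 323 without TOTM 1, 2, 3 and 4. Calls that survived leaving out any single array numbered 1168, of which 1001 were higher.

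The split between higher and lower calls depended on the scaling. Higher genes made up 71.5% of calls with the scaling used here, 60.2% after quantile normalization and 56.5% after normexp background correction with quantile normalization. They made up 45.3% when arrays were scaled to the 75th percentile of the probes above background on all 8 arrays, and 60.3% with the median of those probes. Scaling to the median of all probes moved the median of all genes from 0.02 to 0.50 and called 416 genes, all of them higher. Of the lower genes named below Fdft1, Dhh, Piwil2, Lamc1, Hspa9 and Gstm1 turned positive with that scaling, none of them called. Of the 110 called genes chosen by rule, 29 kept their call with median scaling, 30 with no background filter, 44 with probes above background on all arrays of either group and 96 in a fit of all 20 arrays, which adds the control group and groups given DEHP or MEHP at 500 mg/kg. Differences are therefore best read relative to the median of all genes.

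**Figure D1:**
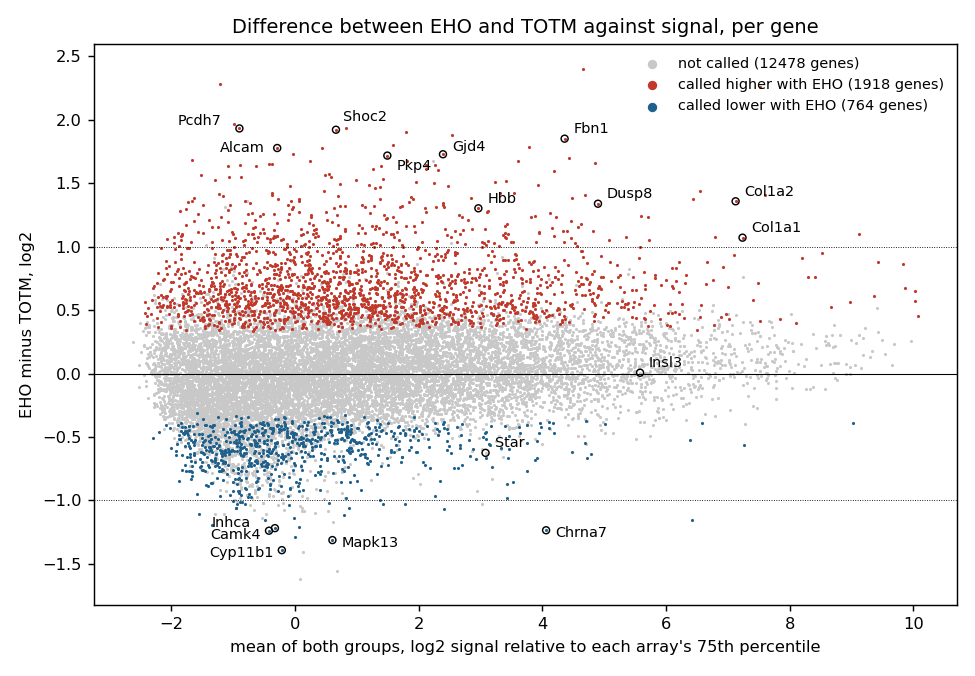
Each point is 1 of 15160 genes. The horizontal axis is its mean log2 signal over EHO and TOTM relative to the 75th percentile of each array, and the vertical axis is EHO minus TOTM in log2, with dotted lines at 2-fold. Called genes above the upper line (300) outnumber those below the lower line (26), and Insl3 lies at 0.01.

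The arrays of both groups differed in how much they measured. Spots well above background made up 46.1%, 50.4%, 62.5% and 63.5% on the EHO arrays and 69.4%, 75.6%, 63.9% and 74.4% on the TOTM arrays. The mean difference was -15.2 points, and every EHO array lay below every TOTM array (exact two-sided permutation p = 0.0286, the smallest that 4 against 4 can give). Signal of the brightest spike-in control RNA was 13.4 to 13.6 in raw log2 with EHO and 12.4 to 12.7 with TOTM, while the dimmest read 2.97, 3.53, 5.34 and 5.46 with EHO and 5.45 to 5.89 with TOTM. Over genes the median within-group SD was 0.225 with EHO and 0.135 with TOTM. Median differences rose with signal, from -0.08 in the dimmest of 4 equal classes of genes to 0.10 in the brightest. The part of these features in the gene differences was not tested.

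**Figure D2:**
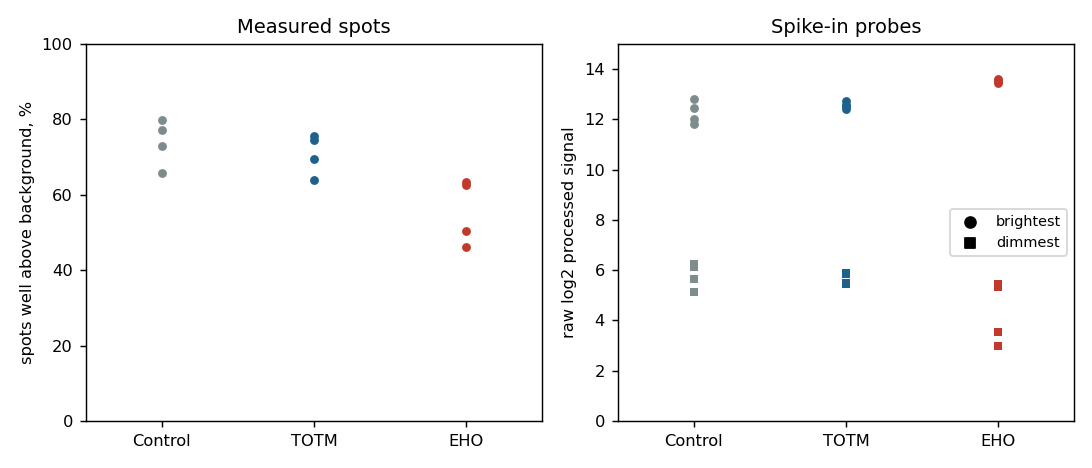
The left panel gives the share of spots well above background in percent for each array of control, TOTM and EHO, and the right panel the raw log2 processed signal of the brightest and dimmest spike-in probes. EHO arrays have the lowest shares (46.1% to 63.5%), the brightest upper spike-in (13.4 to 13.6) and, on EHO 1 and 2, the dimmest lower spike-in (2.97 and 3.53).

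Many genes of the extracellular matrix were higher with EHO. Of 30 matrix genes tested, 15 were higher and 1 was lower, and their median difference was 0.66 against 0.02 over all genes. The share of this list called was 53.3%, against 17.7% of all genes. Of the 16 calls, 11 survived leaving out any single array. Per array, the median deviation of these genes from their 8-array mean was 0.61, 0.33, 0.01 and 0.40 with EHO and -0.37, -0.50, -0.26 and -0.11 with TOTM. EHO 3 was the lowest EHO array and still lay above every TOTM array, and the control arrays ran from -0.38 to 0.10. Without EHO 1 and 2, which had the fewest measured spots, 12 matrix genes were higher and the median was 0.46. With median scaling 7 were higher, the only scaling that left fewer than 15.

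The fibrillar collagens were among the brightest genes of the array. Col1a2, a chain of type I collagen (probe at chr4:29428206-29428265, rn4), read 8.34, 7.72, 7.17 and 7.99 on the EHO arrays and 6.40, 6.23, 6.54 and 6.62 on the TOTM arrays. Every EHO array lay above every TOTM array, a difference of 1.36 ± 0.21 (limma adjusted p = 0.0022), and a second probe gave 1.24. Col1a1, the partner chain (chr10:83638177-83638236, rn4), read 8.29, 7.79, 7.15 and 7.86 with EHO and 6.46, 6.51, 6.79 and 7.05 with TOTM. EHO 3 and TOTM 4 of Col1a1 nearly met, and the difference was 1.07 ± 0.22 (adjusted p = 0.0084). Its other probes gave 1.12 and 1.06. The control spots of both genes were marked as outliers and have no value. Col5a1 (0.90) and Col5a2 (0.70), which nucleate collagen fibrils, were higher too. Col3a1 was higher by 0.68, a call lost without TOTM 1 (adjusted p = 0.051) and without TOTM 2 (adjusted p = 0.060).

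Fbn1, which encodes the microfibril protein fibrillin, showed the largest difference of the matrix genes. Its probe (chr3:112608789-112608848, rn4) read 5.83, 4.89, 5.01 and 5.42 with EHO and 3.50, 3.28, 3.57 and 3.39 with TOTM. The groups lay far apart, by 1.85 ± 0.19 (adjusted p = 0.00054), with the control arrays between them at 3.85 to 4.70. A second, dimmer Fbn1 probe gave 0.28 and was not called. Mmp14, a membrane protease that cleaves matrix, read 5.33, 5.16, 4.77 and 4.99 with EHO and 4.05, 3.72, 3.93 and 3.73 with TOTM. Its difference was 1.20 ± 0.14 (adjusted p = 0.00064), and control arrays at 4.45 to 4.81 overlapped the EHO range. Timp3, an inhibitor of such proteases (1.07), the adhesion protein gene Tnc (1.08) and the basement membrane genes Nid1 (1.31) and Lama5 (0.78) were also higher. The second Nid1 probe gave 0.12. Lamc1, a laminin chain, was the single lower matrix gene at -0.40, but a dimmer probe gave 1.21, so its direction depends on the probe, and the call was lost in 4 of the 8 fits that left out 1 array and in the 20-array fit (adjusted p = 0.30).

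Several markers of peritubular and interstitial cells were higher as well. Of 17 tested, 7 were higher and 0 were lower in limma (12 and 0 at unadjusted p under 0.05), with a median of 0.53. The share of this list called was 41.2%, against 17.7% of all genes. Of the 7 calls, 5 survived leaving out any single array, and 3 of the 7 are collagen genes already counted. Across scalings the number called higher ran from 2 with median scaling to 9 with normexp and quantile normalization, where 1 was called lower. Nr2f2, the interstitial nuclear receptor (chr1:125280995-125281054, rn4), read 3.77, 2.85, 2.99 and 2.87 with EHO and 1.72, 1.14, 1.66 and 1.52 with TOTM. EHO 1 stood highest and the groups did not overlap (1.61 ± 0.21, adjusted p = 0.00089), while the control arrays at 2.44 to 2.86 lay nearer to EHO. Igf1, a growth factor of stromal cells, was higher by 1.01, and Tcf21, a mesenchymal transcription factor, by 0.71. Not called were the muscle genes Tagln (0.74), Des (0.42) and Cnn1 (-0.48).

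Erythroid genes had the highest list median, at 0.98. Of 10 tested, 5 were higher and 0 were lower in limma (6 and 0 at unadjusted p under 0.05). The share of this list called was 50%, against 17.7% of all genes. The globin genes that were called carry probes within 1 cluster on chromosome 1. Globin genes are related in sequence, some more closely than others, so the probe of 1 may also measure another's RNA. The upstream sequences of Hbb and Hbe1, the 2 of the 5 genes with a promoter in the RefSeq GRCr8 table, are shown because these genes moved together. The 100 bases before the start are written 5′ to 3′, with CCAAT and also CACCC and ATAAAA, on either strand, in capitals. Neighbouring or overlapping matches run together.
Hbb: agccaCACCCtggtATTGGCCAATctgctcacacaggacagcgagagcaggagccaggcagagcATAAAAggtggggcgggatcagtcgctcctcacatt
Hbe1: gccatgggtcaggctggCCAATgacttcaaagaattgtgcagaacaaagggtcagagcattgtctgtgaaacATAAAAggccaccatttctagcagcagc
They lie on the minus strand at chr1:167663722-167663821 and chr1:167696281-167696380 (GRCr8). CCAAT and CACCC are letters of known globin promoter elements, and ATAAAA is a TATA-like word. Over all 33469 promoters of the table, 17.1% hold CCAAT, 25.6% hold CACCC and 7.52% hold ATAAAA in the same window. Hbe1 has no CACCC in these 100 bases.

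Hbb, an adult-type beta globin, read 3.65, 4.45, 3.48 and 2.88 with EHO and 2.63, 1.77, 2.71 and 2.14 with TOTM. EHO 2 was highest and TOTM 2 lowest, and the groups did not overlap (1.30 ± 0.30, adjusted p = 0.015). Hbe1, an embryonic globin, read 4.25, 4.93, 5.26 and 3.32 with EHO and 3.44, 2.87, 3.31 and 3.20 with TOTM. Its groups overlapped, since EHO 4 lay below TOTM 1, and the call (1.24 ± 0.34, adjusted p = 0.029) was lost without EHO 2 (adjusted p = 0.072) and without any single TOTM array. A second Hbe1 probe gave 0.97 and was not called when all probes were tested (limma adjusted p = 0.071). Hbe2 (1.24), Hbg1 (1.25) and Slc4a1, the anion exchanger of red cells (1.23), were each called and survived leaving out any single array. Not called were Alas2, which starts haem synthesis in red cells (0.43), and Ahsp, a chaperone of alpha globin (0.73). Without EHO 1 and 2, 3 of the 10 genes were higher. Among erythroid genes that were not tested, Gata1 was above background on 3 EHO and 4 TOTM arrays. It read -2.70, -1.22, -0.58 and -0.52 with EHO and -0.93 to -0.29 with TOTM. For Rhag, 1 probe was above background on 3 EHO and 2 TOTM arrays, the other on 0 and 0. The former read -2.65 to -0.95 with EHO and -3.98 to -2.34 with TOTM.

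**Figure D3:**
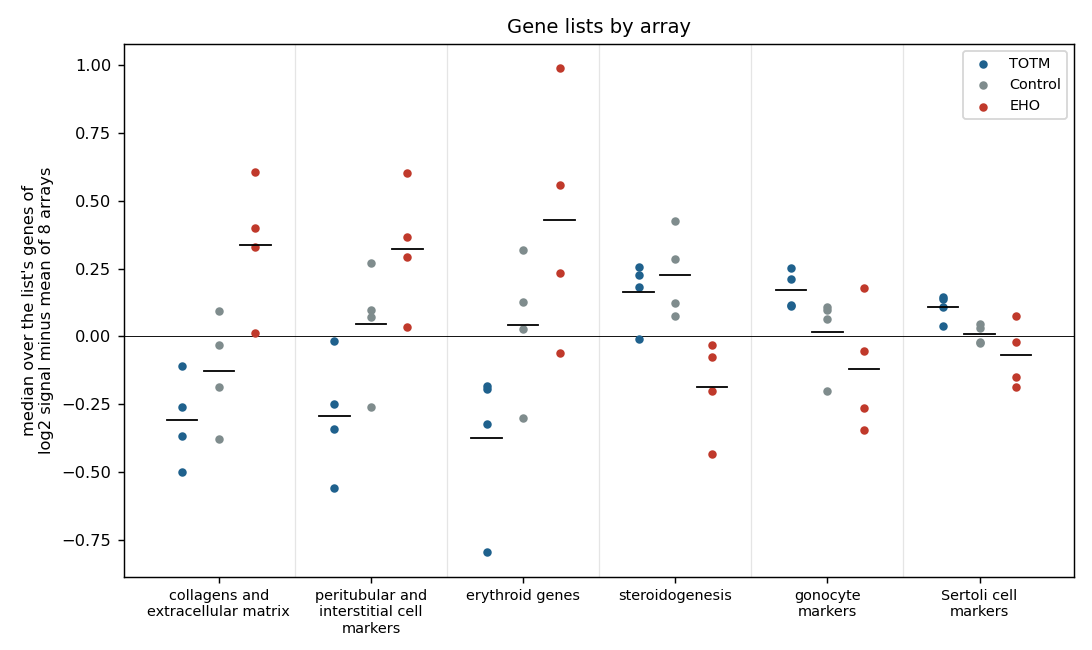
For 6 gene lists, each point is 1 array, given as the median over the list's tested genes of log2 signal minus the gene's mean over the 8 EHO and TOTM arrays, and the bar is the mean of 4 arrays. EHO arrays lie above TOTM arrays for matrix, peritubular and interstitial, and erythroid genes and below them for steroidogenesis, while the groups overlap for gonocyte and Sertoli markers.

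Genes of steroid synthesis had negative differences, none of which passed the threshold with this scaling in the 8-array fit. Of 14 tested, 0 were called in limma, 8 were lower and 0 higher at unadjusted p under 0.05, and the median difference was -0.34. All 14 differences were negative with this scaling. Quantile normalization left 13 negative, and median scaling turned 12 positive while the median of all genes stood at 0.50. The number called lower was 9 after quantile normalization, 9 after normexp with quantile normalization, and 8 or 5 when arrays were scaled to the 75th percentile or the median of probes above background on all 8 arrays. Per array the median deviation was -0.20, -0.08, -0.43 and -0.03 with EHO and 0.18, -0.01, 0.23 and 0.25 with TOTM, so the groups were adjacent, and control ran from 0.08 to 0.42.

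Star, which carries cholesterol into mitochondria, read 3.12, 2.96, 2.13 and 2.87 with EHO and 3.55, 3.31, 3.1 and 3.61 with TOTM. EHO 3 was the lowest array and EHO 1 overlapped TOTM 3, and the difference of -0.62 had a 95% interval of -1.07 to -0.18 (limma adjusted p = 0.055). Scarb1, the receptor for lipoprotein cholesterol, read 4.90, 4.44, 3.94 and 4.43 with EHO and 4.85, 4.72, 5.02 and 5.07 with TOTM. EHO 1 lay within the TOTM range, and the difference was -0.49 (-0.88 to -0.09, adjusted p = 0.079), while a second probe gave -0.58 and was called when all probes were tested (adjusted p = 0.0098). Hsd3b1, which oxidises pregnenolone, read 4.77, 4.73, 4.37 and 5.07 with EHO and 5.15, 4.91, 5.30 and 5.36 with TOTM. EHO 4 lay above TOTM 2, and the difference was -0.45 (-0.80 to -0.10, adjusted p = 0.071).

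Later enzymes and their regulator had differences of the same sign. Cyp11a1, the side-chain cleavage enzyme, was at -0.40 (-0.77 to -0.04, adjusted p = 0.11), and Cyp17a1, which leads to androgens, at -0.31 (-0.66 to 0.03, adjusted p = 0.17). Hsd17b3, the last step to testosterone, was at -0.41 (-0.72 to -0.10, adjusted p = 0.066). Nr5a1, the transcription factor of these genes, was at -0.28 (-0.58 to 0.02, adjusted p = 0.16). In the limma fit of all 20 arrays adjusted p was 0.36 for Star, 0.47 for Scarb1 and 0.38 for Hsd3b1. It was 0.44 for Cyp11a1, 0.60 for Cyp17a1 and 0.37 for Nr5a1, while Hsd17b3 was called in that fit (adjusted p = 0.033). Lhcgr, the luteinising hormone receptor, was not tested: 1 probe was above background on 3 TOTM arrays and 0 EHO arrays, the other on 4 and 1.

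Insl3 interleaved between the groups. It read 5.54, 5.58, 5.61 and 5.61 with EHO and 5.64, 5.53, 5.61 and 5.53 with TOTM. Both groups covered the same range, with a difference of 0.01 and a 95% interval of -0.21 to 0.22 (limma adjusted p = 0.97). Of 8 fetal Leydig cell markers other than enzymes, 1 was lower and 0 were higher, with a median of -0.08. That gene was Ptgds, a prostaglandin synthase also made by Sertoli cells, at -0.68 ± 0.14 (adjusted p = 0.0087). Of 27 genes of cholesterol synthesis and uptake 0 were higher and 1 was lower, with a median of -0.08. It was Fdft1, the squalene synthase, at -0.38, and its call was lost in 6 of the 8 fits that left out 1 array. Shares called were 12.5% of these Leydig cell markers and 3.70% of the cholesterol genes, against 17.7% of all genes.

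Cyp11b1, the 11-hydroxylase typical of the adrenal cortex, had the largest lower difference of all called genes with a symbol and separate groups. It read -1.12, -0.42, -1.69 and -0.41 with EHO and 0.84, 0.14, 0.02 and 0.93 with TOTM (chr7:112977770-112977829, rn4). Each EHO array lay below each TOTM array (-1.39 ± 0.30, adjusted p = 0.010), and control arrays spanned -0.51 to 0.64. The call was lost when all 20 arrays were fitted together (adjusted p = 0.083). Cyp11b1 has near-identical copies, so its identity is uncertain. Other adrenal cortex genes tested were Hsd11b2 (0.01) and Mrap (-0.27), and Cyp21a1, the adrenal 21-hydroxylase, was above background on 0 of the 8 arrays. Also not tested were Akr1b7, Cyp11b2 and Cyp11b3, each above background on 2 EHO and 4 TOTM arrays, and Mc2r, on 0 and 1. On EHO 3 and 4 Cyp11b2 and Cyp11b3 lay within the TOTM range. Akr1b7 read -2.20 on EHO 3 and -1.54 on EHO 4, against -1.85 to -0.88 with TOTM.

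Gonocyte markers had the lowest list median, at -0.43. Of 18 tested, 4 were lower and 0 were higher, 16 had a negative sign, and 0 of the 4 calls survived leaving out any single array. With median scaling 7 were negative and 0 were called. Without EHO 1 and 2 the median was -0.20. The share of this list called was 22.2%, against 17.7% of all genes. The called genes act in the piRNA pathway, which silences transposons in germ cells: Piwil2 (-0.46), Piwil4 (-0.65), Tdrd1 (-0.60) and Tdrd9 (-0.80). Calls of the first 3 were lost in 7, 5 and 6 of the 8 fits that left out 1 array, and Tdrd1 and Tdrd9 lost theirs in the 20-array fit (adjusted p = 0.056 and 0.058). A second Piwil2 probe gave -0.81. Tdrd9, an RNA helicase, read -0.02, 1.36, 0.34 and 0.52 with EHO and 1.34, 1.02, 1.63 and 1.41 with TOTM. EHO 2 lay within the TOTM range, control arrays spanned 0.12 to 1.18, and the adjusted p of 0.048 rose to between 0.063 and 0.12 in the 7 fits that lost the call. Ddx4, the general germ cell helicase, was at -0.15 with a 95% interval of -0.45 to 0.16 (adjusted p = 0.46). Dnmt3l, a cofactor of DNA methylation in germ cells, was at -1.07 and not called.

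Sertoli cell markers split. Of 20 tested, 2 were higher and 3 lower, with a median of -0.19. The share called was 25%, against 17.7% of all genes. Cst12, a cystatin, read -1.78, -1.0, -1.65 and -1.60 with EHO and -0.73, -0.31, -0.17 and -0.81 with TOTM. The groups did not overlap (-1.0 ± 0.19, adjusted p = 0.0065), and control arrays at -1.48 to -0.78 overlapped both. Cdkn1b, a cell cycle inhibitor, was higher by 1.01 although EHO 3 lay below TOTM 3, a call lost without TOTM 1 (adjusted p = 0.051) or TOTM 2 (adjusted p = 0.054). Gdnf, a growth factor for germ cells, was higher by 0.69, and Dhh, the Leydig cell inducer, was lower by 0.47, and these calls were lost in 4 and 5 of the fits that left out 1 array (adjusted p up to 0.096 and 0.083). Gdnf was also lost in the 20-array fit (adjusted p = 0.44), and a second Dhh probe gave 0.10. Amh was at -0.34 with a 95% interval of -0.65 to -0.03 (adjusted p = 0.11), and Sox9, the factor that sets Sertoli identity, at -0.45 with an interval of -1.05 to 0.14 (adjusted p = 0.25).

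Markers of other cell types were mixed. Of 8 markers of mesonephric duct and epididymal epithelium, 3 were higher and 0 lower with a median of 0.35: Emx2, a urogenital transcription factor (1.33, with a second probe at 0.24), Krt19, a keratin (0.72), and Pax2 (0.44). The median deviation of this list was 0.02 to 0.26 on the EHO arrays and -0.18 to -0.07 on the TOTM arrays. Among duct genes that were not tested, both Cdh16 probes were above background on 0 EHO and 2 TOTM arrays, and Pax8 and Lhx1 on 3 EHO and 4 TOTM arrays. Endothelial markers gave 2 higher of 11, the receptor Kdr (0.82) and the surface protein Emcn (0.64), with a median of -0.07. Among those not tested, Pecam1 was above background on 2 EHO and 4 TOTM arrays, Robo4 on 3 and 4, and Tek on 0 and 0. The Flt1 probes were above background on 0 and 1 EHO arrays and each on 4 TOTM arrays. Macrophage and leukocyte markers gave 1 higher of 12, C1qb, a complement subunit (0.84), at a median of 0.00. Shares called were 37.5% of duct, 18.2% of endothelial and 8.33% of macrophage and leukocyte markers, against 17.7% of all genes. Calls of Pax2, C1qb and Emcn were lost in 7, 6 and 5 of the 8 fits that left out 1 array. The part of cell make-up in the gene differences was not tested.

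**Figure D4:**
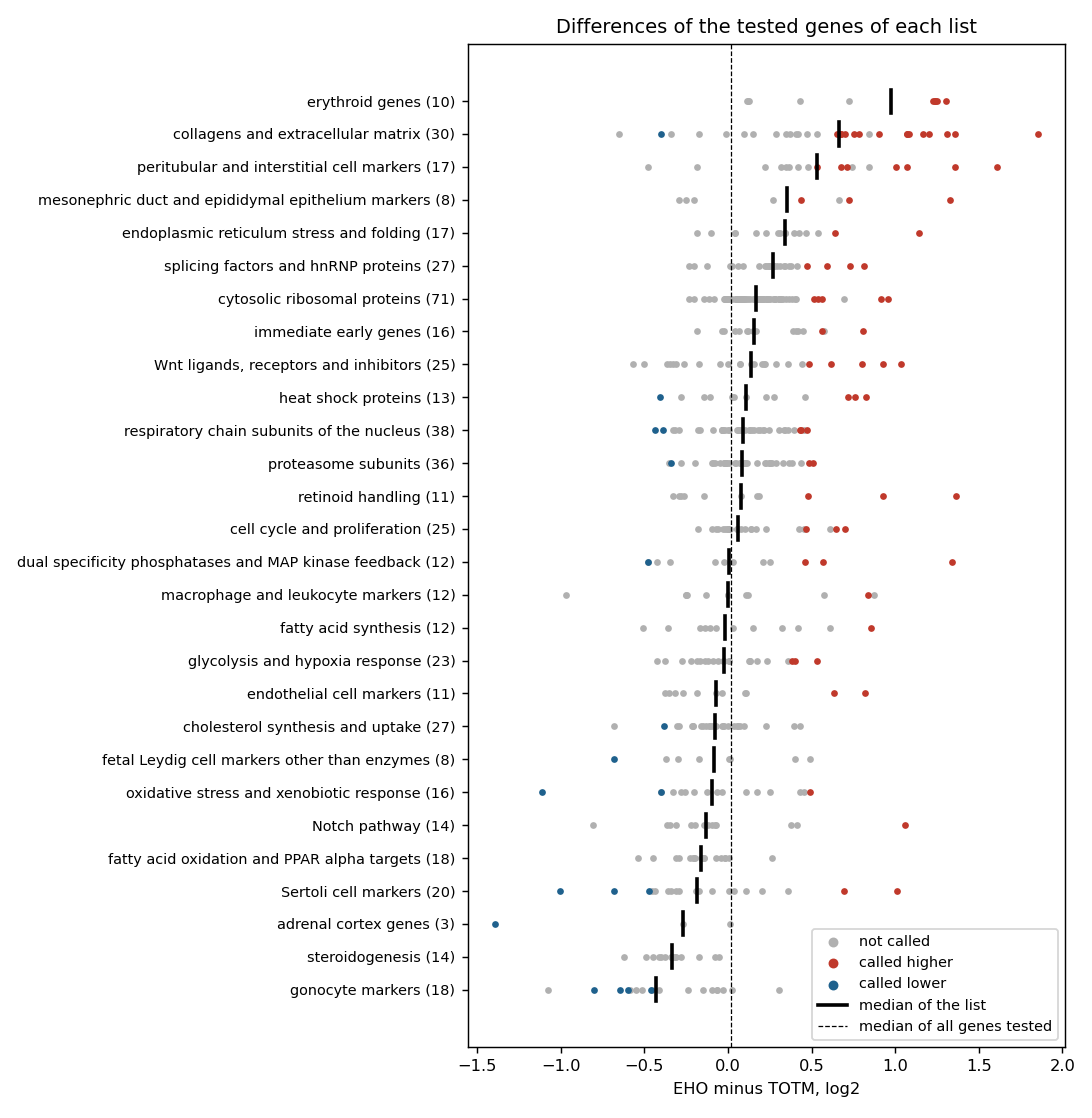
Each point is 1 tested gene of 1 of 28 lists, placed by its EHO minus TOTM difference in log2 and coloured by its call, with the list's median as a bar and the number tested in brackets. Medians run from -0.43 for gonocyte markers to 0.98 for erythroid genes, against a dashed line at 0.02 for all genes tested.

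The largest higher differences were taken as the 12 called genes with a symbol and separate groups that differed most, among them adhesion, guidance and transcription genes. Pcdh7, a protocadherin (chr14:57321171-57321230, rn4), read 0.63, -0.20, 0.04 and -0.21 with EHO and -1.44, -1.93, -1.84 and -2.27 with TOTM. The lowest EHO array lay well above the highest TOTM array, with a difference of 1.93 ± 0.21 (adjusted p = 0.00054), and control arrays at -1.51 to -0.67 reached into the TOTM range. Shoc2, a scaffold of Ras signalling, read 2.19, 1.68, 1.22 and 1.39 with EHO and -0.25, -0.22, -0.23 and -0.50 with TOTM. Its TOTM arrays clustered tightly (1.92 ± 0.19, adjusted p = 0.00046), with control at 0.28 to 0.97. Alcam, an adhesion molecule, read 1.34, 0.34, 0.17 and 0.54 with EHO and -1.22, -1.18, -1.25 and -1.06 with TOTM. EHO 1 was highest, the difference was 1.78 ± 0.21 (adjusted p = 0.00066), and a second probe gave 1.01.

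Slit2, a guidance ligand, read 3.69, 2.92, 2.91 and 2.83 with EHO and 1.45, 1.36, 1.51 and 1.45 with TOTM. EHO 1 stood above the other EHO arrays, the difference was 1.65 ± 0.18 (adjusted p = 0.00054), and a second probe gave 0.90. Id2, an inhibitor of helix-loop-helix factors, was higher by 1.64 with other probes at 1.53 and 0.78. Gjd4, a connexin, was higher by 1.73, and its TOTM arrays spread from 0.83 to 2.27. The remaining members were Fbn1 and Nr2f2, described above, and Pkp4, Wac, Ddx6 and Nfib. For these the choice of probe mattered. Pkp4, a junction protein, was at 1.72 and 0.20 with its probes, and Wac, a chromatin adaptor, at 1.67, 0.44 and -0.30. Ddx6, a helicase of mRNA decay, was at 1.62, 1.30 and -0.25, and Nfib, a transcription factor, at 1.61, 1.21, 0.42 and 0.34. All 12 kept their call in each fit that left out 1 array.

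**Figure D5:**
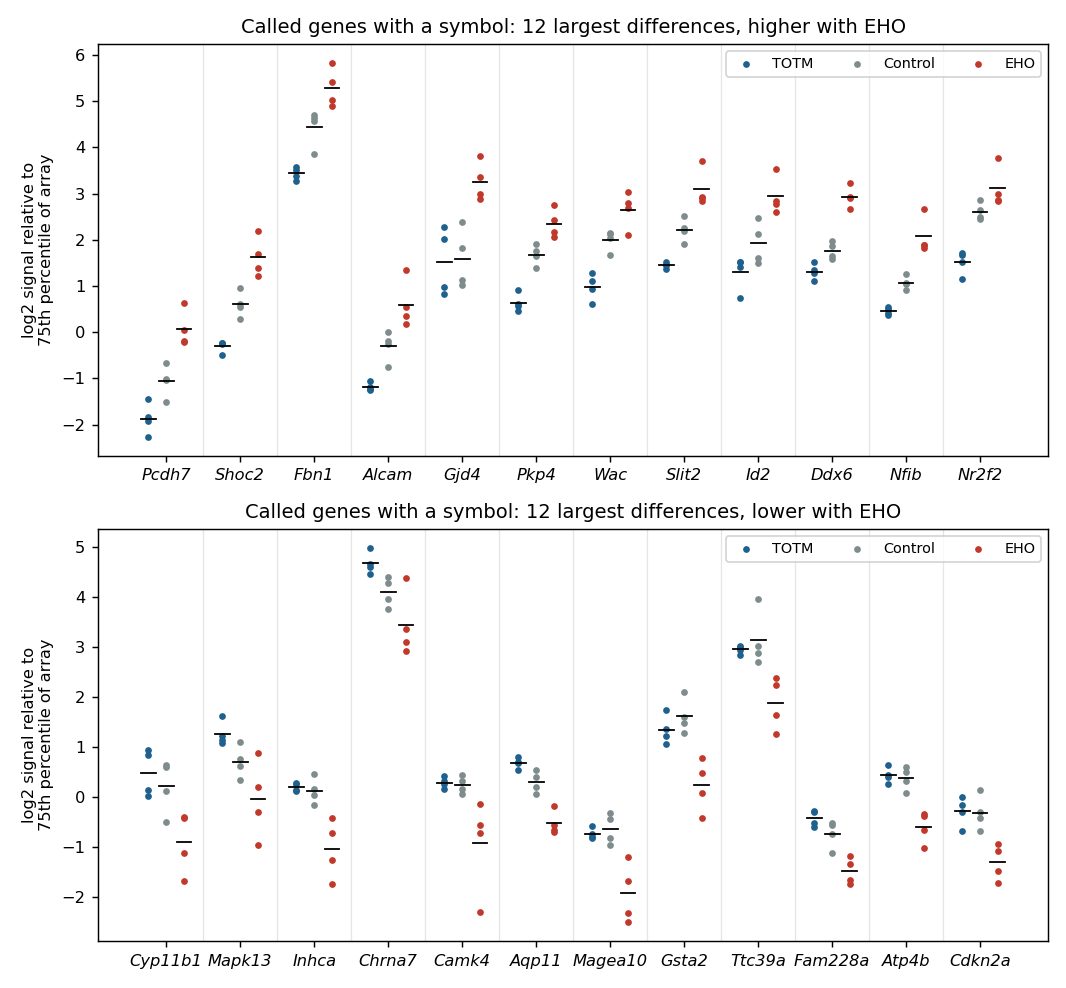
The 12 called genes with a symbol and separate groups that differed most in each direction, with log2 signal relative to the 75th percentile of each array for 4 TOTM, 4 control and 4 EHO arrays and a bar at each group's mean. In the upper panel the TOTM arrays lie below the EHO arrays for every gene, by 1.61 to 1.93 on average, and the other panel shows the reverse, with EHO minus TOTM between -1.39 and -1.03.

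The 12 lower genes chosen the same way differed by -1.39 to -1.03. Mapk13, a stress-activated kinase (chr20:7063768-7063827, rn4), read -0.97, -0.30, 0.88 and 0.19 with EHO and 1.14, 1.08, 1.21 and 1.61 with TOTM. EHO arrays spread more widely than TOTM arrays, and the difference was -1.31 ± 0.31 (adjusted p = 0.016). Inhca, an inhibitor of carbonic anhydrase, read -1.27, -0.43, -1.74 and -0.72 with EHO and 0.12, 0.13, 0.26 and 0.28 with TOTM. All EHO arrays were below 0 and all TOTM arrays above it (-1.24 ± 0.23, adjusted p = 0.0058). Chrna7, a nicotinic receptor subunit, was the brightest of the 12, at 3.1, 4.39, 2.93 and 3.35 with EHO and 4.61, 4.45, 4.99 and 4.66 with TOTM. EHO 2 nearly met TOTM 2, and the difference was -1.23 ± 0.27 (adjusted p = 0.011).

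Aqp11, an intracellular water channel, had the smallest error of these 12 lower genes. It read -0.57, -0.71, -0.68 and -0.18 with EHO and 0.54, 0.79, 0.67 and 0.70 with TOTM, a difference of -1.21 ± 0.14 (adjusted p = 0.00054). Gsta2, a glutathione transferase, was at -1.11 (second probe -0.98), Cdkn2a, a cell cycle inhibitor locus, at -1.03, and Atp4b, a proton pump subunit, at -1.04. Magea10, of a cancer-testis antigen family (-1.19), Ttc39a (-1.07) and Fam228a (-1.06) complete the list with Camk4, a calcium-dependent kinase, at -1.22. Camk4 read -2.31 on EHO 1 against -0.73 to -0.14 on EHO 2 to 4, and its call was lost without any single TOTM array (adjusted p 0.071 to 0.097). The other 11 kept theirs in those fits, but in the 20-array fit Cyp11b1 (adjusted p = 0.083), Gsta2 (0.097) and Atp4b (0.11) lost theirs.

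Among signalling genes, Dusp8, a phosphatase of stress kinases, read 5.41, 5.70, 5.36 and 5.81 with EHO and 4.47, 4.11, 4.08 and 4.27 with TOTM (1.34 ± 0.14, adjusted p = 0.00054). Hes7, a Notch target, was higher by 1.06 and Wnt11, a secreted ligand, by 1.04. In the 20-array fit all 3 calls were lost, with adjusted p of 0.056 for Dusp8, 0.051 for Hes7 and 0.058 for Wnt11. The control arrays of these genes did not group: Dusp8 was 2.08 on control 2 and 3.86 to 4.30 on the others, Hes7 3.63 against 4.6 to 5.38, and Wnt11 1.44 against 2.37 to 3.08. Of 25 Wnt ligands, receptors and inhibitors 5 were higher and 0 lower (8 and 2 at unadjusted p under 0.05), with a median of 0.14. Of 14 Notch pathway genes only Hes7 was called, with a median of -0.13. Of 12 dual specificity phosphatases and feedback genes 3 were higher and 1 lower, with a median of 0.00. Shares called were 20% of Wnt, 7.14% of Notch and 33.3% of phosphatase and feedback genes, against 17.7% of all genes.

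Retinoid genes included Aldh1a2, which makes retinoic acid, at 1.19, 0.61, 0.53 and 0.64 with EHO and -1.35, -0.61, -0.40 and -0.12 with TOTM. EHO 1 was highest and TOTM 1 lowest, with a difference of 1.36 ± 0.24 (adjusted p = 0.0039) and control arrays spread from -0.98 to 0.49. Of 11 retinoid genes 3 were higher and 0 lower, with a median of 0.08. Of 16 immediate early genes, Jun (0.81) and Junb (0.56), both transcription factors, were higher and 0 were lower, at a median of 0.16. Shares called were 27.3% of retinoid and 12.5% of immediate early genes, against 17.7% of all genes.

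Chaperones and basic cell machinery were described by the same counts. Calr, a chaperone of the endoplasmic reticulum, was higher by 1.14 ± 0.23 (adjusted p = 0.0072), and Pdia3, its partner isomerase, by 0.64 (lost without TOTM 2, adjusted p = 0.053), 2 of 17 in that list (median 0.34). Hsp90aa1 (0.72), Hsp90ab1 (0.76) and Hspa4 (0.83) were higher and Hspa9 lower (-0.41) among 13 heat shock genes, with a median of 0.11, so that 30.8% of this list was called against 17.7% of all genes. The call of Hspa9 was lost in 4 of the 8 fits that left out 1 array and in the 20-array fit (adjusted p = 0.25). Other Hsp90aa1 probes gave 0.74, 0.75 and 0.01, and a second Hsp90ab1 probe gave 0.17. Of 71 cytosolic ribosomal protein genes 5 were higher and 0 lower (14 and 0 at unadjusted p under 0.05), at a median of 0.16. That median turned to -0.03 with quantile normalization, where 5 were higher and 4 lower, and to -0.02 with normexp and quantile normalization, where 4 were higher and 8 lower. Splicing factors gave 4 higher of 27 (median 0.27), respiratory chain subunits 3 higher and 2 lower of 38 (median 0.09) and proteasome subunits 2 higher and 1 lower of 36 (median 0.09). Of these calls 2 in splicing, 0 in the respiratory chain and 1 in the proteasome survived leaving out any single array. The share called was 11.8% of the endoplasmic reticulum list, 7.04% of ribosomal, 14.8% of splicing, 13.2% of respiratory chain and 8.33% of proteasome genes. Each lay under the 17.7% of all genes.

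Fatty acid oxidation and PPAR alpha targets, which respond to many plasticisers in rat liver, had no called gene among 18 in the 8-array limma fit. In that fit 0 were higher and 3 lower at unadjusted p under 0.05, with a median of -0.16. Fabp3, a fatty acid carrier, was at -0.45 (95% interval -0.77 to -0.12, adjusted p = 0.058), and Pex11a, a peroxisome gene, at -0.54 (-1.04 to -0.04, adjusted p = 0.12). A second Pex11a probe gave -0.18, and the limma fit of all 20 arrays called Pex11a (adjusted p = 0.033). In fatty acid synthesis Elovl6, an elongase, was higher by 0.86, the only call among 12 (median -0.02). Of 16 oxidative stress and xenobiotic genes Cyp1b1 was higher (0.49) and Gsta2 and Gstm1 (-0.40) lower, at a median of -0.10. The calls of Cyp1b1 and Gstm1 were each lost in 5 of the 8 fits that left out 1 array, and Gstm1 in the 20-array fit (adjusted p = 0.051). Cell cycle genes gave 3 higher of 25, among them Ccnd2, a cyclin (0.70), and Top2a, a topoisomerase (0.64), both lost without TOTM 2 (adjusted p = 0.056 and 0.057), at a median of 0.06, and glycolysis and hypoxia genes 3 higher of 23 at a median of -0.03. In both of these lists 0 calls survived leaving out any single array. Shares called were 18.8% of oxidative stress and xenobiotic genes and 8.33% of fatty acid synthesis genes, against 17.7% of all genes. They were 12% of cell cycle and 13.0% of glycolysis and hypoxia genes, under the 17.7% of all genes.

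Some probes were measured on TOTM arrays only, beside the lower share of measured spots on the EHO arrays. On all 4 TOTM arrays and on 0 EHO arrays 488 probes were above background, and 0 probes the other way round. Over all probes of a gene, 408 genes followed this pattern, 148 of them with a symbol. The bound on the fold, a ratio of means without a test, was above 1 for 362 of them, with a median of 1.15 over all 408. None reached 2-fold. These genes were chosen for being above background with TOTM alone, so the bounds do not show that they differ. The highest bound was that of Sdr16c5, a retinol dehydrogenase, at 1.90-fold lower with EHO. It took on each EHO array the higher of its own signal and the lowest signal of any probe above background.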

How the data were processed

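The deposited intensity files come from Agilent Feature Extraction 9.5.3.1, per the file headers; the submitters' processing notes name version 9.5. The authors' software had subtracted background from the processed signal and had not scaled arrays to each other. Per the labels, 700 ng of RNA were labelled with Cy3. From these intensities log2 was taken and each array's 75th percentile over non-control probes was subtracted. Spots marked as outliers were left out, 10-spot probes were averaged, and each gene took its brightest probe. Probe coordinates are those of the files (rn4). Of the 17714 probes, 6258 were named through an accession, 2812 through a symbol, 1796 through a synonym, and 6848 kept the file's name.

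limma 3.58.1 in R 4.3.3 fitted both groups (lmFit, eBayes; 6 residual and 5.36 prior degrees of freedom) with Benjamini-Hochberg adjustment over 15160 genes, and it was tested on simulated data. Fold changes are differences of log2 intensities. The number of arrays limits the precision. No EHO or TOTM pair of one group differed by less than 4.30 times the noise of repeated spots. Genes named were 12 fixed ones, the 12 called genes with a symbol and separate groups that differed most each way, and in each of 28 lists the called members or up to 4 others. Dnmt3l, Tagln, Des, Cnn1, Alas2, Ahsp, Gata1, Rhag, Hsd11b2, Mrap, Cyp21a1, Akr1b7, Cyp11b2, Cyp11b3, Mc2r, Cdh16, Pax8, Lhx1, Pecam1, Flt1, Robo4, Tek and Sdr16c5 were named after their values were seen. The members and lists were chosen with earlier results of these data known. Some named members of the lists are not reported here. The 26 alternative settings are in the closing section. The authors' deposited table of fold changes and p-values was not used here.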

Additional observations from a re-analysis of the deposited data

Results flagged for a closer look

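In several groups of 4 arrays, 1 array stood apart from the rest. The measure is the gap between the highest or lowest array and its nearest neighbour as a share of the group's range, held against Dixon's 95% critical value. Of 302 groups examined 20 exceeded it, and chance alone exceeds it in about 1 in 20.

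EHO 1 was the highest EHO array for Slit2 (0.893), Nfib (0.925), Nr2f2 (0.851), Egln3 (0.834), P4ha1 (0.856) and Aldh1a2 (0.834), and the lowest for Pax2 (0.854). EHO 3 was lowest for Cox4i1 (0.895) and Col6a1 (0.898), and EHO 2 lowest for Hspa9 (0.869).

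TOTM 4 was the lowest TOTM array for Shoc2 (0.905), Rpl37 (0.865) and the median deviation of the Wnt list (0.843), and the highest for Ptgds (0.835), P4ha1 (0.877) and Wnt5a (0.877). TOTM 1 was highest for Wnt11 (0.879) and Hes7 (0.907) and lowest for Id2 (0.859). TOTM 2 was lowest for Amh (0.925).

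A signal outside the gene measurements also differed between groups. The brightest spike-in probe averaged 13.5 in raw log2 on the EHO arrays, above the control arrays at 11.8 to 12.8.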

How the results depend on the processing

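The count of 2682 called genes was 416 (416 higher, 0 lower) with median scaling, 675 (486 and 189) with no background filter and 1031 (863 and 168) with probes above background on all arrays of either group. It was 3977 (2247 and 1730) with normexp and quantile normalization, 4003 (2408 and 1595) with quantile normalization, 3116 (1412 and 1704) with the 75th percentile and 2953 (1781 and 1172) with the median of probes above background on all 8 arrays. A fit of all 20 arrays (EHO, TOTM, control, DEHP and MEHP) called 3388 (2167 and 1221). Requiring 2-fold left 326 (300 and 26). Chosen after seeing the data, genes brighter than the median gene gave 1782 (1386 and 396) and the 20-array fit without EHO 1 and 2 gave 1264 (831 and 433); the 8-array fit without these arrays gave 1954 (1206 and 748). Apart from the replicate block given below, the other settings that kept all arrays stayed within 1.5 times. Leaving out 1 array gave 1313 to 3429 calls, 1070 to 2381 higher and 207 to 1048 lower. Replicate numbers did not pair the arrays, since same-numbered EHO and TOTM arrays correlated at -0.27, -0.30, -0.08 and -0.17 in their deviations, and a fit with the number as a replicate block gave 1770 calls (1349 and 421). The spot share difference ran from -17.8 to -12.1 points when 1 array was left out, with exact permutation p up to 0.114 where 3 against 4 cannot go below 0.0571.

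Medians of the 28 lists, relative to the median of all genes, stayed within the replicate spread in 608 of 672 combinations of list and setting. The rest follow. With probes above background on all arrays of either group the medians were steroidogenesis -0.19, cholesterol 0.073, Sertoli -0.088, mesonephric 0.066, adrenal -0.78, fatty acid oxidation -0.048, immediate early 0.29, cell cycle 0.21, glycolysis 0.13, ribosomal 0.32, respiratory chain 0.23, proteasome 0.24, splicing 0.42 and phosphatase 0.061. With no background filter the medians were steroidogenesis -0.20, cholesterol 0.074, Sertoli -0.079, endothelial 0.069, macrophage 0.16, mesonephric -0.043, fatty acid oxidation -0.0497, retinoid -0.12, immediate early 0.28, cell cycle 0.22, glycolysis 0.13, ribosomal 0.33, respiratory chain 0.23, proteasome 0.25, splicing 0.43 and Wnt -0.0101. With normexp and quantile normalization the medians were endothelial 0.062, matrix 0.36, ribosomal -0.031, splicing 0.0804, Notch -0.028 and phosphatase 0.098. With quantile normalization alone the medians were mesonephric 0.47, fatty acid oxidation -0.30, ribosomal -0.052, proteasome -0.086, Wnt 0.29, Notch -0.037 and phosphatase 0.16. Among genes brighter than the median gene the medians were gonocyte -0.23, macrophage 0.75, mesonephric 0.58, Wnt 0.28, Notch 0.089 and phosphatase 0.38. Without EHO 1 and 2, in the 8-array and the 20-array fit alike, the medians were gonocyte -0.20, endothelial 0.12, endoplasmic reticulum 0.011, Wnt 0.23, Notch -0.0077 and phosphatase 0.11. Leaving out 1 array moved gonocyte (-0.48 to -0.24), retinoid (-0.071 to 0.099) and Wnt (0.038 to 0.17). Under median scaling called lower genes became Cox4i1 0.091, Dhh 0.0033, Fdft1 0.10, Gstm1 0.08048, Hspa9 0.069, Lamc1 0.078, Ndufs8 0.03985, Piwil2 0.017 and Psmd13 0.14, and with a filter on all 20 arrays another Lamc1 probe was taken (1.21). Apart from the filters, whose construction changes which genes are tested, the causes were not tested. Fewer spots above background with EHO limit what dim genes can show.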
